A study of Mus musculus with 6 samples.

Results

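The genes described here are the enzymes of liver that attach glucuronic acid or sulfate to small molecules, oxygenate nitrogen and sulfur, cleave esters and amides, oxidise aldehydes and reduce keto steroids. They were taken by gene symbol, under a rule set with earlier results of these data known, as every probe set of the array table whose single platform gene symbol starts with Ugt1, Ugt2, Ugt3, Sult, Fmo, Ces, Aldh or Akr1c, with Aadac added. The rule took 61 of 11811 probe sets, which stand for 47 of the 7163 genes that have a single symbol in the table. No probe set had a single symbol starting with Ugt1. Livers labelled Atp7b KO (samples KO903, KO904 and KO905) were compared with livers labelled WT (samples WT4, WT5 and WT6), with 1 Affymetrix array and 1 total RNA preparation per sample. The KO mice lack Atp7b, an ATPase that exports copper from hepatocytes and that is defective in Wilson disease, a copper storage disorder of liver and brain. The labels point to an earlier description of the KO mouse and give no sex, age, strain, diet or way in which the gene was disrupted, for either group. Values are scaled MAS 5.0 signals, and differences are KO minus WT of log2(signal + 16), so that 1 is a doubling except at low signal.

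Glucuronidation, sulfation and flavin-dependent oxygenation make hormones, bilirubin, bile acids, drugs and dietary chemicals more water soluble, so that they can leave in bile or urine. Carboxylesterases and arylacetamide deacetylase hydrolyse ester and amide drugs and also lipids inside the hepatocyte, while aldehyde dehydrogenases clear aldehydes that arise from alcohol, amino acids, retinoids and lipid peroxidation. Most of these genes are strongly expressed in hepatocytes, and many lie beside close relatives on the same chromosome.

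Median signals of the 6 arrays lay between 330.8 and 342.8, and log2 signals correlated at 0.974 or more within a group and at 0.970 or less between groups. Ratios of 3′ to 5′ control probe sets ran between 1.10 and 1.47 for actin and between 0.82 and 0.99 for Gapdh. WT6 was the highest on both. The second principal component, with 18.8% of the variance, set WT5 and WT6 apart from the other arrays and from each other. The single Atp7b probe set read 240.5, 231.8 and 184.9 in KO livers, against 259, 299.7 and 241 in WT livers, a difference of -0.27 ± 0.16 (SE; limma adjusted p = 0.407). Whether its probes lie inside or outside the disrupted stretch is not known, so it does not check the labels. The copper- and zinc-binding metallothioneins Mt1 (1.14, limma adjusted p = 0.000747) and Mt2 (1.52, limma adjusted p = 0.000341) rose in KO livers on their brightest probe sets.

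Of the 61 probe sets, 59 had a mean signal of at least 100 and were tested, covering 45 genes. The probe sets of Aldh3b1, an aldehyde dehydrogenase of medium and long chain aldehydes, and Ugt2b38 fell below that minimum, with signals up to 94.5 in KO livers and 87.7 in WT livers. At a limma adjusted p under 0.05 over all 10620 tested probe sets, 8 of the 59 (13.6%) were called, beside 4.14% of all tested probe sets. The members are brighter, with a median of the mean signals of 2209 against 387, and shares at like signal were not compared. Of the 8, 4 rose in KO livers (all tested probe sets: 2.05%) and 4 fell (2.09%). They stand for 7 genes: Sult1b1, Ces2e, Ces1g and Ugt3a1 were higher, and Fmo5 (2 probe sets), Aadac and Ces1d were lower. No member changed by 2-fold, whereas 1.16% of all tested probe sets were both called and at least 2-fold apart. Since whole liver was measured, fewer cells of a type and less RNA per cell cannot be told apart.

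The 59 differences went both ways. Their median was -0.03, against 0.03 for all tested probe sets, with 28 above 0 and 31 below. The median size without regard to sign was 0.21, against 0.16 for all tested probe sets, and the median standard error was 0.13 against 0.15. The KO and WT samples did not overlap for 20 of the 59 (33.9%), beside 23.6% of all tested probe sets. Of these, 9 were higher in KO livers (all tested probe sets: 13.2%) and 11 lower (10.4%). The differences ran between -0.65 (Fmo5) and 0.86 (Ces2e), and 54 of the 59 confidence intervals (95%) lay wholly within 2-fold in either direction.

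**Figure D1:**
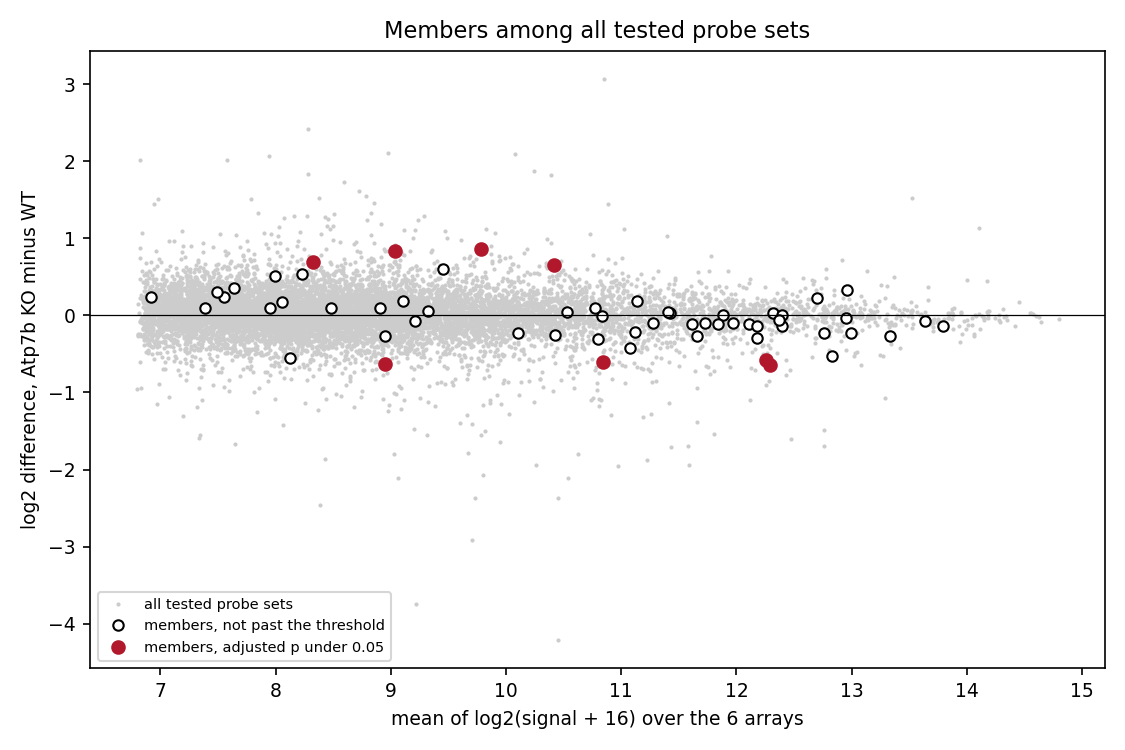
Log2 difference, Atp7b KO minus WT (vertical axis), against the mean of log2(signal + 16) over the 6 arrays (horizontal axis) for all 10620 tested probe sets (grey) and the 59 tested members (open circles; filled where the limma adjusted p is under 0.05). The members lie between -0.65 and 0.86, inside the range of the other probe sets; signals of different probe sets are not levels that can be set against each other.

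The called members belonged to 4 of the 6 families. Of the called probe sets, 4 were among the 12 of the carboxylesterases and Aadac, 2 among the 6 flavin monooxygenases, 1 among the 8 sulfotransferases and 1 among the 8 UDP-glucuronosyltransferases. None was called among the 19 aldehyde dehydrogenase or the 6 Akr1c probe sets. The share over all tested probe sets was 4.14%. No difference between families was tested.

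**Figure D2:**
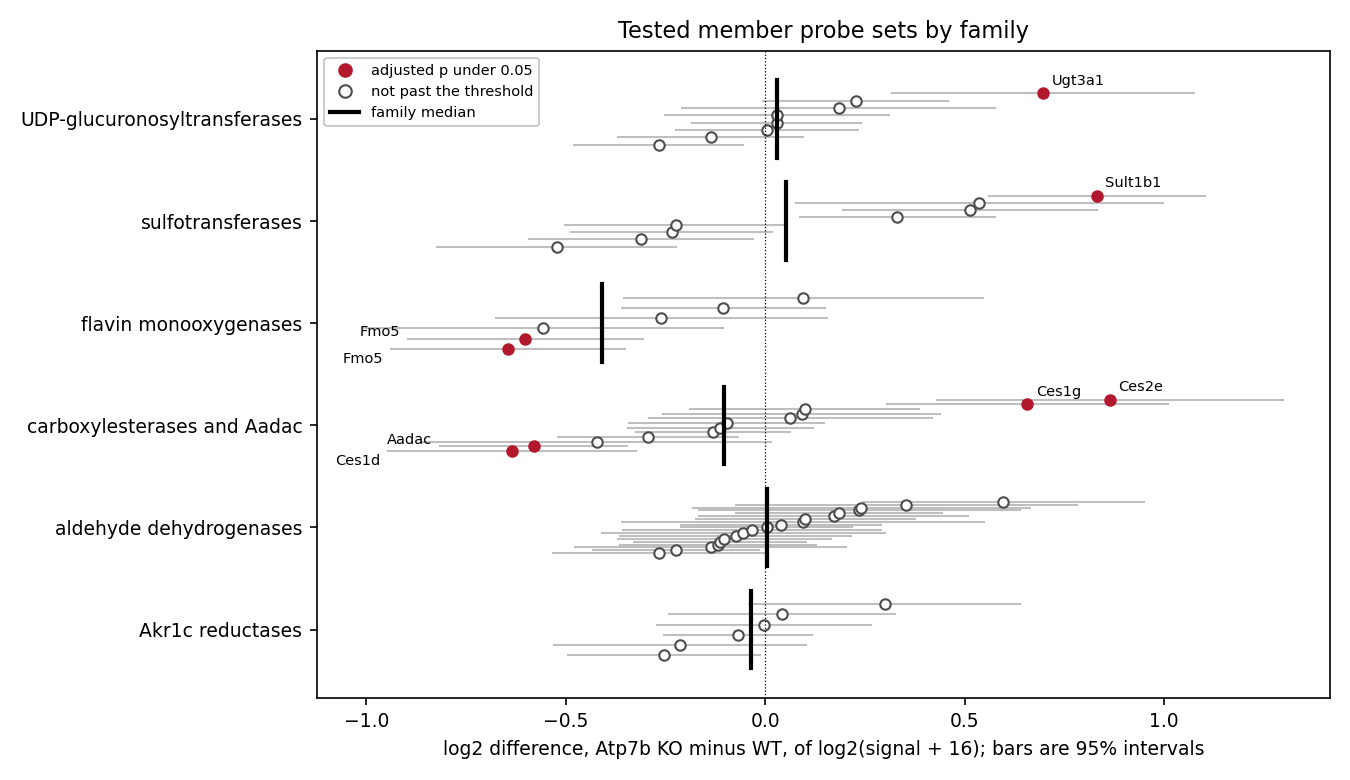
Log2 difference, Atp7b KO minus WT, of each of the 59 tested probe sets by enzyme family, with 95% confidence intervals (grey lines) and the family median (black bar). Filled points passed a limma adjusted p of 0.05: 4 lie to the right of 0 and 4 to the left, and the family medians run between -0.41 (flavin monooxygenases) and 0.05 (sulfotransferases).

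The promoters of the 5 genes called on their probe set of highest signal are shown because these genes carry the changes described below. Each sequence is the 250 bases that end just before a RefSeq transcript start (build GRCm38.p6), read 5′ to 3′ on the gene's strand, and capitals mark a GCGTG core. Sult1b1 has a pair of starts in RefSeq.
Aadac, chr3:60031538-60031787, plus strand: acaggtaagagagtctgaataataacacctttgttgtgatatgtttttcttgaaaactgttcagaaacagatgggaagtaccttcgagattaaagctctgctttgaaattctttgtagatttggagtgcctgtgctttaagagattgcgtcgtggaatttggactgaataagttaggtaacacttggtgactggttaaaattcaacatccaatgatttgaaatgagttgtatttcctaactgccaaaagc
Ces1g, chr8:93337210-93337459, minus strand: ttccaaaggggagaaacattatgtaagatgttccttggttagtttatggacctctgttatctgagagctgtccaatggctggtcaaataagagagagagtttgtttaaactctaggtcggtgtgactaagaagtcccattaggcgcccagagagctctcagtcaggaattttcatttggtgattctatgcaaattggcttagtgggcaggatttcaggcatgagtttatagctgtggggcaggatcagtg
Ces2e, chr8:104926010-104926259, plus strand: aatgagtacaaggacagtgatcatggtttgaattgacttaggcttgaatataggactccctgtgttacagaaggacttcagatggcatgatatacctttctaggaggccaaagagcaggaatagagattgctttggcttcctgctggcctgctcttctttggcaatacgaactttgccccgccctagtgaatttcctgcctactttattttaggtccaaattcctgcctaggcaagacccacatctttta
Fmo5, chr3:97628769-97629018, plus strand: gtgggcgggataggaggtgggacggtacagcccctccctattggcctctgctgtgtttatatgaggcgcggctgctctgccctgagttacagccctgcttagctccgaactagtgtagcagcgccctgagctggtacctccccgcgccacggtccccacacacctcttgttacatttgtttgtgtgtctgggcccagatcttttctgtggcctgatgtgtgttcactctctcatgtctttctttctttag
Sult1b1 first window, chr5:87536223-87536472, minus strand: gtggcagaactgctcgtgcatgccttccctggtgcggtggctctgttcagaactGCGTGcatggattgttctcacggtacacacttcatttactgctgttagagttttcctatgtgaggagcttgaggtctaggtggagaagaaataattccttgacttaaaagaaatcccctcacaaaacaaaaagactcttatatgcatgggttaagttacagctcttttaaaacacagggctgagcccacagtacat
Sult1b1 second window, chr5:87538196-87538445, minus strand: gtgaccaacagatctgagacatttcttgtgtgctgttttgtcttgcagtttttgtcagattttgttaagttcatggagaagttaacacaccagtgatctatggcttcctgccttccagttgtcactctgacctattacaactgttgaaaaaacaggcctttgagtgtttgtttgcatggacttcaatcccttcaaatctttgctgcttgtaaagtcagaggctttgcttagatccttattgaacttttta

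Short motifs of xenobiotic and liver factors were looked for on both strands: TGACNNNGC (antioxidant response element core), GCGTG (aryl hydrocarbon receptor element core) and the HNF1 site core, none of which contains another. In all, 43 windows of 39 member genes were found in the RefSeq table, 7 of them of called genes (the 6 shown and 1 of Ugt3a1), and no window was found for Ces1d. GCGTG occurred in 1 of the 7 windows, in 14.0% of the 43 member windows and in 28.2% of 32851 windows of all genes. The match among the 7 lay 196 bases before the transcript start of the Sult1b1 window shown first. On the minus strand that is the downstream start of the pair. TGACNNNGC was in none of the 7, in 1 of the 43 and in 10.2% of all windows. The HNF1 site core was in none of the 7, in 1 of the 43 and in 0.371% of all windows. GC content was lower in the member windows (median 44%) than over all windows (52.4%). A match describes letters in a window and is no evidence of binding.

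Sulfotransferases transfer sulfate from the donor PAPS. Sult1b1, which sulfates thyroid hormones and small phenols, rose in KO livers and was the member with the smallest p. Its signals were 628.6, 686.5 and 738.6 in KO livers, against 364.9, 365.5 and 401.5 in WT livers. All 3 KO livers exceeded every WT liver, the lowest of the KO group by 1.57 times the highest of the WT group. The means were 685 ± 55.0 in KO and 377 ± 21.0 in WT livers (SD, n = 3 each), a difference of 0.83 ± 0.12 (SE; limma adjusted p = 0.00487). The call held with each of the 6 samples left out in turn (limma adjusted p up to 0.0283), which was true of no other called member.

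The other sulfotransferases went both ways without passing the threshold. Sult3a1, which in mouse sulfates amines and is a female-predominant gene, read 5844.4, 5041.7 and 7573.6 in KO livers, against 8198.9, 9424.1 and 8583.7 in WT livers. The groups did not overlap, and the difference was -0.52 ± 0.14 (SE; limma adjusted p = 0.0593). Without KO905, the highest of the KO livers, it was -0.68 and passed the threshold (limma adjusted p = 0.0207). Sult1a1, the main phenol sulfotransferase of liver, read 7823.1, 9957.8 and 9085.4 in KO livers, against 6399, 7554.1 and 7348 in WT livers. Again the groups did not overlap, with a difference of 0.33 ± 0.11 (SE; limma adjusted p = 0.138). Sult1c2, another phenol sulfotransferase, read 278.4, 302.6 and 287.8 in KO livers, against 186.2, 181.3 and 229.7 in WT livers. Its KO livers were all above its WT livers (0.51 ± 0.15, SE; limma adjusted p = 0.0782).

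Sult5a1 had 1 WT liver, WT5 at 339.2, above 2 of the KO livers, and its difference was 0.54 (limma adjusted p = 0.206); it was called without WT5. The dopamine sulfotransferase Sult1d1 overlapped between groups on both of its probe sets (-0.31 and -0.22). Sult2a2, a hydroxysteroid sulfotransferase and also a female-predominant gene, did not overlap between groups but differed by only -0.23 (limma adjusted p = 0.321). Over the family, 6 of the 8 probe sets had an unadjusted limma p under 0.05 (all tested probe sets: 17.9%) and 5 of 8 did not overlap between groups (all tested probe sets: 23.6%). The median was 0.05, with 4 on each side of 0, and the median size without regard to sign was 0.42. Sult1b1 (0.83) and Sult1d1 (-0.31) are neighbours on chromosome 5, with no other gene of the RefSeq table between them.

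The list of female-predominant mouse liver genes shares 4 genes with the members: Sult2a2, Sult3a1, Fmo1 and Fmo2. Of its 11 tested genes 9 were below 0 in KO livers on their brightest probe sets (median -0.23), beside 4824 of all 10620 tested probe sets. Above 0, and not called, were Hao2 (0.38, no overlap; limma adjusted p = 0.181) and Abcd2 (0.19, with overlap). Acot3, a peroxisomal acyl-CoA thioesterase, was called lower (-1.09, limma adjusted p = 0.0453). That call was lost with any sample other than WT5 left out (limma adjusted p up to 0.156). The female-predominant list summed to 21575 to 25654 in KO livers, against 28035 to 31805 in WT livers. That sum includes the shared members, and the Sult3a1 and Sult2a2 probe sets are its brightest, so it partly restates member values. Of 8 tested male-predominant genes 6 were above 0 and 2 below on their brightest probe sets (median 0.37). In all, 3 genes were called higher, on 4 of 10 probe sets (all tested probe sets: 4.14%). They were the steroid hydroxylases Cyp2d9 (1.02) and Cyp7b1 (1.33) and the glutathione transferase Gstp1 (0.57). The Gstp1 call was lost without KO904 or WT6 (limma adjusted p up to 0.0714). Below 0, and not called, were C8b (-0.32, no overlap) and Mup3 (-0.36, with overlap). The male-predominant list summed to 23184 to 26009 in KO livers, against 15968 to 21377 in WT livers. Its brightest probe set is that of Gstp1, with means of 10979 in KO and 7336 in WT livers. Of the 5 sex chromosome genes listed, only 1, Xist, was read here, and no listed gene of the Y chromosome was. The 3 probe sets of Xist, the RNA of the inactive X chromosome, gave no call. Their sum was 4853 to 5556 in KO livers and 4593 to 6272 in WT livers. They went both ways, with the dimmer ones at -0.53 and -0.61 without overlap, and the brightest at 0.17 with overlap. The brightest read 4283.8, 3617.3 and 3886.8 in KO livers, against 2942.5, 4048 and 3528.8 in WT livers. The labels give no sex, and the part of these genes in the sulfotransferase and flavin monooxygenase values was not tested.

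**Figure D3:**
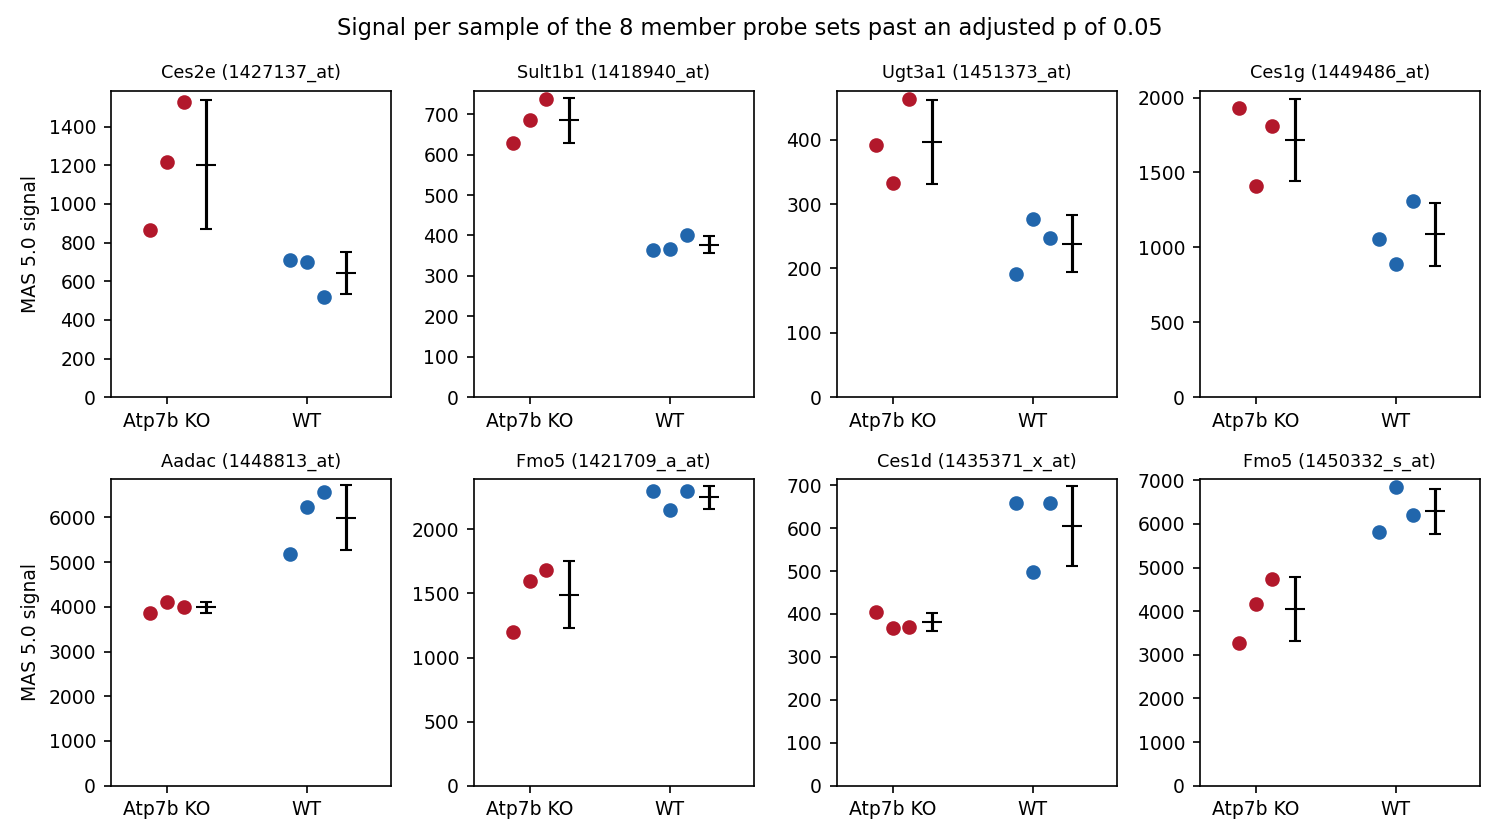
MAS 5.0 signal (linear axes that start at 0) in each liver for the 8 called member probe sets, Atp7b KO in red and WT in blue, with the mean and SD (n = 3 each) beside the points. The top row holds those higher in KO livers and the bottom row those lower, and in each panel the 3 KO livers lie wholly to one side of the 3 WT livers.

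Flavin monooxygenases oxygenate soft nucleophiles such as tertiary amines and thioethers, and Fmo5, an atypical member, carries out Baeyer-Villiger oxidation of ketones. Fmo5 fell in KO livers on both of its probe sets. The brighter one read 3264.4, 4152.6 and 4726.6 in KO livers, against 5808.5, 6849.5 and 6195.2 in WT livers. The dimmer one read 1196.1, 1596.6 and 1683.2 in KO livers, against 2296.9, 2149.8 and 2302.7 in WT livers. On both, every KO liver was below every WT liver and KO903 was the lowest. The differences were -0.65 ± 0.13 (SE; limma adjusted p = 0.0240) and -0.60 ± 0.13 (SE; limma adjusted p = 0.0331). Fmo5 was the only member gene with several probe sets that was called on all of them. The brighter one lost its call without KO903, KO904 or WT6 and the dimmer one without KO903, KO904, WT4 or WT6 (limma adjusted p up to 0.0799 and 0.0961), with differences of -0.77 to -0.50 and -0.70 to -0.45.

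The genes of the chromosome 1 cluster, Fmo4, Fmo1 and Fmo2, were not called, while Fmo5 lies apart on chromosome 3. Fmo2 read 149.7, 258 and 250.8 in KO livers, against 273.6, 326.9 and 372.1 in WT livers on its dimmer probe set, with no overlap (-0.56 ± 0.21, SE; limma adjusted p = 0.177). On the other the groups overlapped and the difference was -0.26 (limma adjusted p = 0.525). Fmo1, the main flavin monooxygenase of many mouse tissues, read 3462, 2842.8 and 3488.4 in KO livers, against 3284.4, 3361.2 and 3874.5 in WT livers. The groups overlapped (-0.11 ± 0.12, SE; limma adjusted p = 0.71), with a 95% interval of -0.36 to 0.15. Fmo4 was at 0.10 with an interval of -0.36 to 0.55. Over the family 5 of 6 probe sets were below 0, and the median was -0.41, but 4 of the 6 belong to Fmo5 and Fmo2. With 1 probe set per gene the median of the 4 genes was -0.18. The spread within the KO group was wider here than for all tested probe sets, with a median SD on the log2 scale of 0.26 in KO livers and 0.17 in WT livers, against 0.15 and 0.17.

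Carboxylesterases and arylacetamide deacetylase are hydrolases of the endoplasmic reticulum. Aadac, which removes acyl groups from arylamine drugs and takes part in lipid hydrolysis, fell in KO livers. Its signals were 3855.2, 4104.6 and 3996.8 in KO livers, against 5191.8, 6226.5 and 6574.3 in WT livers. The KO livers lay close together, all below the WT livers (-0.58 ± 0.11, SE; limma adjusted p = 0.0143). The limma adjusted p was above 0.05, at up to 0.0581, without KO903, KO904, KO905 or WT6, while the difference stayed between -0.68 and -0.51.

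Ces2e and Ces1g rose in KO livers. Ces2e, a carboxylesterase of the second subfamily, read 864.4, 1218.5 and 1529.1 in KO livers, against 710.5, 700.1 and 518.9 in WT livers. The KO livers were spread widely, with KO903 nearest to the WT livers, and the difference was 0.86 ± 0.20 (SE; limma adjusted p = 0.0353). Ces1g, a first-subfamily enzyme known in mouse for its part in hepatic lipid handling, read 1929.9, 1407 and 1812.9 in KO livers, against 1058, 891.9 and 1307.1 in WT livers. KO904 and WT6 came within 1.08 times of each other, and the difference was 0.66 ± 0.16 (SE; limma adjusted p = 0.0470). The Ces2e call was lost without KO904, KO905, WT4 or WT6 (limma adjusted p up to 0.129) and the Ces1g call with any sample other than WT6 left out (up to 0.166). Ces1g was also lost when arrays were centred on their medians.

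Ces1d, the triacylglycerol hydrolase that mobilises stored lipid for secretion, was called on 1 of 3 probe sets. That probe set (of the array's x type, whose probes can also match other sequences) read 404.7, 367.2 and 370.8 in KO livers, against 657.7, 497.4 and 659 in WT livers. It fell in KO livers with no overlap (-0.63 ± 0.14, SE; limma adjusted p = 0.0332), a call that was lost with any sample other than WT5 left out (up to 0.116). A brighter one read 2234.4, 1405.9 and 2012.4 in KO livers, against 2870.2, 1855.9 and 2873.8 in WT livers, and overlapped (-0.42; limma adjusted p = 0.299). KO904 and WT5 were the lowest of their groups on it. The brightest read 4265.9, 4103.3 and 4300.1 in KO livers, against 4920.7, 3987.3 and 4851.4 in WT livers, and overlapped as well (-0.11; limma adjusted p = 0.648). Averaged over its probe sets, Ces1d was not called.

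The remaining hydrolases differed less. Ces1c, the esterase that mouse liver secretes into plasma, read 14777.1, 13343.1 and 12513.5 in KO livers, against 14938.4, 14542.1 and 14934 in WT livers. The groups overlapped and the difference was -0.13 ± 0.09 (SE; limma adjusted p = 0.491). Ces1f did not overlap between groups, at 3822.3, 4215.7 and 4513.1 in KO livers, against 5052.9, 4795.6 and 5543.4 in WT livers (-0.29 ± 0.10, SE; limma adjusted p = 0.157). Ces1e, Ces2a, Ces2g and Ces4a lay between -0.10 and 0.10 and overlapped. On chromosome 8, Ces1d, Ces1e, Ces1f and Ces1g follow each other with no other gene between them, and their brightest probe sets stood at -0.11, 0.06, -0.29 and 0.66. These paralogs are similar in sequence, and how far their probes cross-react was not tested.

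**Figure D4:**
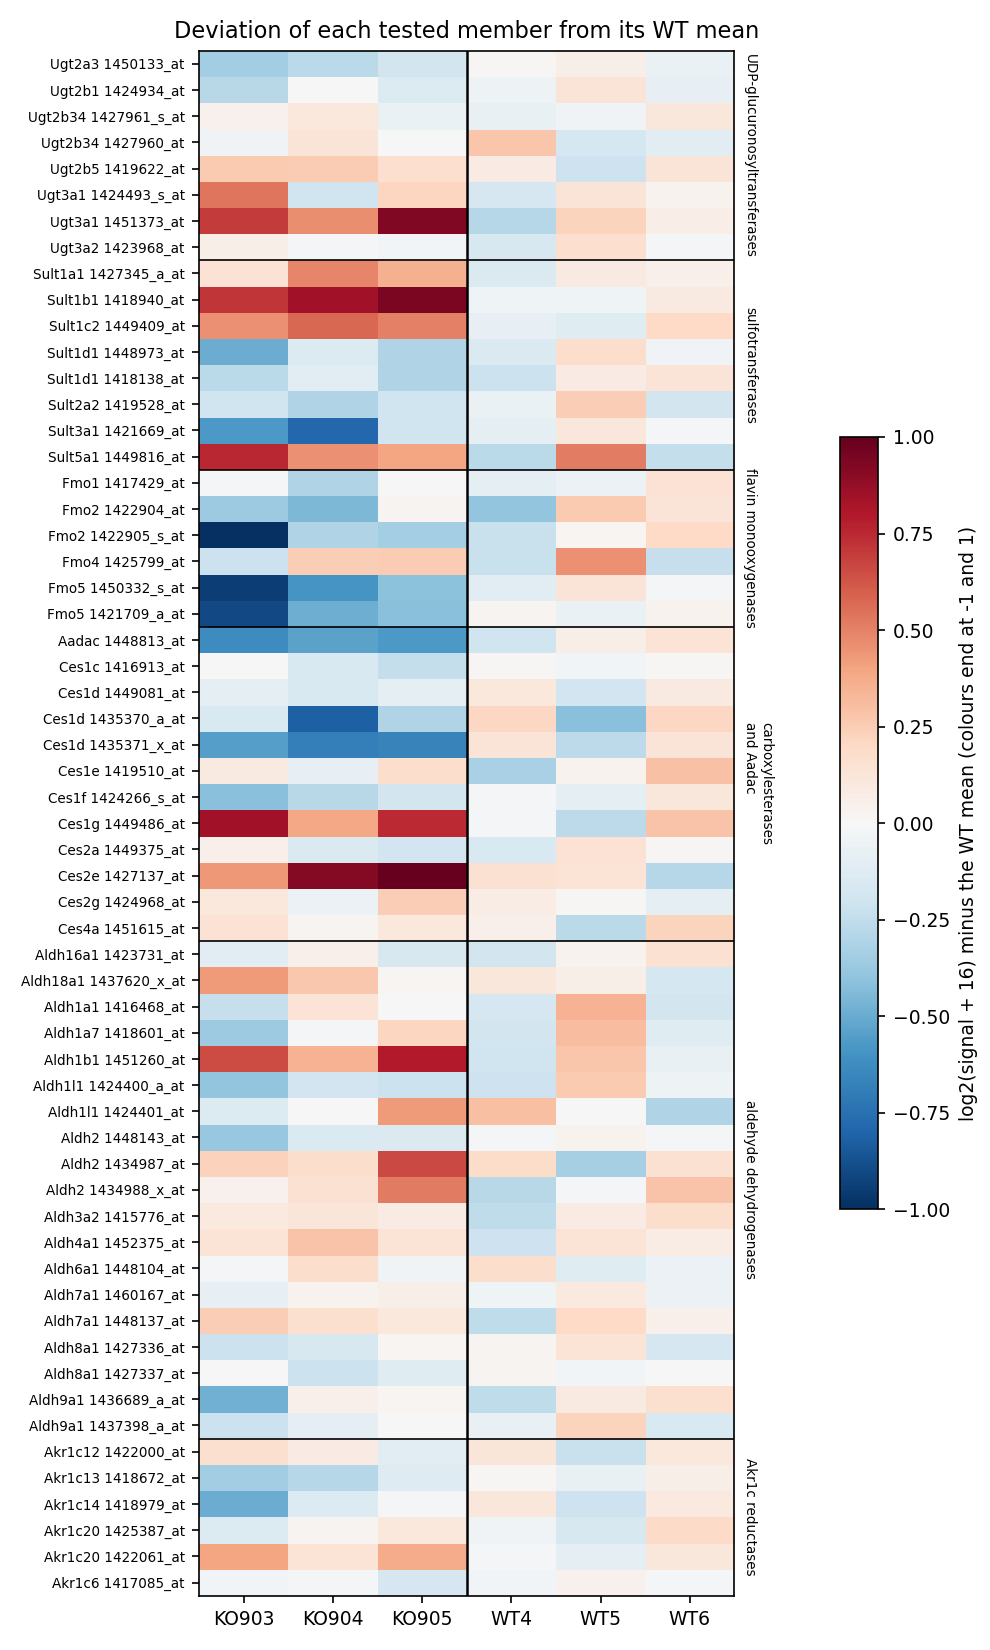
Deviation of log2(signal + 16) from the WT mean in each of the 6 livers (columns, KO livers left of the black line and WT livers right of it) for the 59 tested member probe sets (rows, by family); red is above and blue below the WT mean, and colours end at -1 and 1. The rows of Sult1b1, Ces1g and Ces2e are red in all 3 KO livers, those of Fmo5 and Aadac are blue in all 3, and most aldehyde dehydrogenase and Akr1c rows are pale.

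UDP-glucuronosyltransferases of the second family, which conjugate steroids, bile acids and drugs, were not called, with 1 of 5 at an unadjusted limma p under 0.05. Ugt2b5 read 7365.7, 7302.8 and 6882.1 in KO livers, against 6496.3, 5308.7 and 6695.2 in WT livers, with no overlap (0.23 ± 0.11, SE; limma adjusted p = 0.30). Ugt2a3 read 2770.1, 2910.5 and 3094.7 in KO livers, against 3539.6, 3659.8 and 3366.9 in WT livers, with no overlap in the other direction (-0.27 ± 0.10, SE; limma adjusted p = 0.173). Ugt2b1 read 4650.6, 5622.9 and 5120.1 in KO livers, against 5435.3, 6164.6 and 5314.9 in WT livers (-0.14 ± 0.11, SE; limma adjusted p = 0.558). Ugt2b1 and both probe sets of Ugt2b34 (0.03 each) overlapped between groups. The 5 tested Ugt2 probe sets had 95% intervals between -0.48 and 0.46. They are part of 1 cluster on chromosome 5 that also holds Sult1b1 and Sult1d1.

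Ugt3a1, whose human counterpart uses UDP-N-acetylglucosamine, was called on 1 of 2 probe sets. That probe set read 392.3, 332.4 and 462.7 in KO livers, against 191, 277.3 and 247.1 in WT livers. It rose in KO livers with no overlap (0.70 ± 0.17, SE; limma adjusted p = 0.0486), the call nearest to the threshold. The brighter probe set read 735.7, 435.5 and 583.1 in KO livers, against 445, 550.6 and 514.9 in WT livers. There the KO livers spanned the whole WT range, and the difference was 0.18 (limma adjusted p = 0.66). The call was lost with any sample other than WT5 left out (limma adjusted p up to 0.159), under quantile normalization, with arrays centred on their medians and when the probe sets were averaged. Ugt3a2, on the same stretch of chromosome 15, was at 0.01.

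Glucuronosyltransferases of the Ugt1a locus, among them the bilirubin-conjugating Ugt1a1, are read by 3 probe sets that carry several symbols and so lie outside the rule. Their differences were -0.13 to -0.005, with a lowest limma adjusted p of 0.495. A probe set shared by Akr1c12 and Akr1c13 (0.07) and one shared by Ces3a and Ces3b (0.01) were not called either.

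Aldehyde dehydrogenases gave no call among 19 tested probe sets of 13 genes, the lowest limma adjusted p being 0.0653, with 2 at an unadjusted p under 0.05. That lowest value was of Aldh1b1, a mitochondrial enzyme that oxidises acetaldehyde and retinaldehyde, which read 882.7, 708.8 and 973.7 in KO livers, against 480.5, 676.3 and 525.8 in WT livers. Its groups did not overlap, although KO904 was close to WT5 (0.60 ± 0.16, SE; limma adjusted p = 0.0653). Without WT5 it was called (0.74, limma adjusted p = 0.0245). Aldh2, the mitochondrial enzyme that clears acetaldehyde from ethanol, read 6770.3, 7975.3 and 7973.7 in KO livers, against 8705, 9028.6 and 8720.1 in WT livers on its brightest probe set. All KO livers were below the WT livers (-0.22 ± 0.10, SE; limma adjusted p = 0.25), while its 2 dim probe sets stood at 0.35 and 0.24 with overlap. Aldh1l1, the 10-formyltetrahydrofolate dehydrogenase of the folate pathway, read 8577.5, 9895.8 and 9711.1 in KO livers, against 9779.2, 13495.2 and 10871.6 in WT livers. The groups overlapped (-0.27 ± 0.12, SE; limma adjusted p = 0.282).

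The other aldehyde dehydrogenases lay between -0.14 and 0.24 and overlapped between groups. The retinaldehyde dehydrogenase Aldh1a1 was at -0.03 and its neighbour on chromosome 19, Aldh1a7, at -0.06. The fatty aldehyde dehydrogenase Aldh3a2 was at 0.10. Enzymes of amino acid breakdown were at 0.18 (Aldh4a1, proline), 0.04 (Aldh6a1, valine) and 0.00 (Aldh7a1, lysine, brightest probe set; 0.17 on the other). Aldh8a1, of the kynurenine pathway, and Aldh9a1, of carnitine synthesis, were between -0.14 and -0.10 on 2 probe sets each, and Aldh18a1, which makes proline, was at 0.24. Aldh16a1 was at -0.07 and the dim Aldh1l1 probe set at 0.09. The 19 intervals (95%) ran between -0.53 and 0.95, so each stayed within 2-fold. Samples of the WT group varied more than those of the KO group, with a median SD on the log2 scale of 0.12 in KO livers and 0.22 in WT livers.

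The Akr1c enzymes, which reduce keto groups of steroids and other carbonyls, gave no call among 6 probe sets, with 1 at an unadjusted limma p under 0.05 and a lowest adjusted p of 0.257. Akr1c13 read 1166.3, 1221.2 and 1357.2 in KO livers, against 1503.7, 1416.2 and 1549.3 in WT livers. All its KO livers were below its WT livers (-0.25 ± 0.11, SE; limma adjusted p = 0.257). Akr1c6, a mouse 17-ketosteroid reductase, read 12814.7, 12942 and 11593.3 in KO livers, against 12789.1, 13435.7 and 12926.7 in WT livers, with overlap (-0.07 ± 0.09, SE; limma adjusted p = 0.743). Akr1c20 did not overlap on its dimmer probe set, at 197.1, 163.1 and 193.7 in KO livers, against 144.4, 136.1 and 160 in WT livers (0.30 ± 0.16, SE; limma adjusted p = 0.350). Its brighter probe set was at 0.00. Akr1c14, a 3-alpha-hydroxysteroid dehydrogenase, read 1677.2, 2161.1 and 2362.8 in KO livers, against 2568.4, 2052.7 and 2543.7 in WT livers (-0.21 ± 0.14, SE; limma adjusted p = 0.491). Akr1c14 and Akr1c12 (0.04) overlapped between groups. The 6 intervals (95%) ran between -0.53 and 0.64.

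For 9 of the 12 genes with more than 1 tested probe set, all probe sets pointed one way, and the exceptions were Akr1c20, Aldh1l1 and Aldh2. Counting 1 probe set per gene, that of highest signal, 5 of 45 genes were called (all 6604 genes tested this way: 3.94%): Sult1b1, Ces1g and Ces2e higher, Fmo5 and Aadac lower. With no intensity trend in eBayes, 3 of the 8 member calls remained, those of Sult1b1, Aadac and Ces1d.

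**Figure D5:**
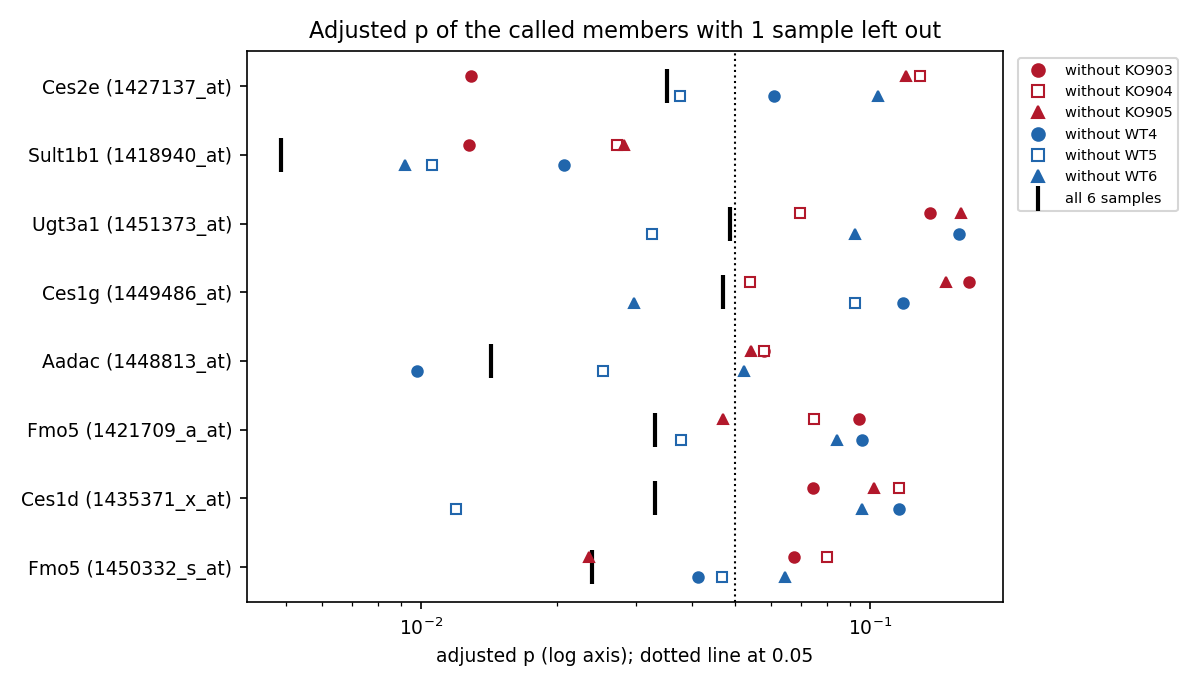
Limma adjusted p (log axis) of the 8 called member probe sets with all 6 livers (black bar) and with each liver left out in turn (red, KO; blue, WT), with a dotted line at 0.05. All 6 points of Sult1b1 lie left of the line, and each of the other 7 probe sets has 3 to 5 points to its right.

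Genes that supply cofactors to these families or handle their products showed no call, beside 4.14% of all tested probe sets. Of 13 tested genes, among them Ugp2 and Ugdh of UDP-glucuronic acid synthesis, Papss1 and Papss2 of PAPS synthesis and the glucuronidase Gusb, none passed the threshold on any of 25 probe sets, the lowest limma adjusted p being 0.211, with 4 at an unadjusted p under 0.05. Other oxidation and reduction enzymes were called for 2 of 21 tested genes, on 2 of 27 probe sets (all tested probe sets: 4.14%). The aldehyde oxidase Aox1 read 1693.7, 2070.4 and 1801.6 in KO livers, against 910.8, 935.8 and 1018.9 in WT livers, a rise of 0.94 (limma adjusted p = 0.00155). Its relative Xdh, the xanthine dehydrogenase of purine breakdown, read 357, 370.2 and 339 in KO livers, against 789.9, 741 and 677.1 in WT livers, a fall (-1.02, limma adjusted p = 0.00129). Neither pair of groups overlapped, and both calls held with each sample left out in turn.

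Among other conjugating and hydrolysing enzymes 2 of 21 tested genes were called, on 2 of 25 tested probe sets (all tested probe sets: 4.14%). Inmt, a methyltransferase of indolamines and thioethers, fell in KO livers (-0.64, limma adjusted p = 0.0107; 0.0545 without KO904). Gamt, which completes creatine synthesis, also fell (-0.47, limma adjusted p = 0.0453), a call lost with any of the 6 samples left out (up to 0.166). Of 24 tested regulators of these families 4 were called, all lower in KO livers, on 4 of 38 probe sets (all tested probe sets: 4.14%). On their brightest probe sets 17 of the 24 were below 0 (median -0.23), beside 4824 of all 10620 tested probe sets. Ppara, the fatty acid receptor, read 1232.8, 1390.2 and 1066.6 in KO livers, against 2379.9, 2373.7 and 3250.4 in WT livers. Its groups were far apart (-1.10, limma adjusted p = 0.00258), and its call held with each sample left out in turn. The dioxin receptor Ahr fell on 1 of 2 probe sets (-0.59, limma adjusted p = 0.0404; up to 0.139 with any sample other than WT5 left out), and its dimmer probe set was at -0.10. Cebpb, a liver transcription factor (-0.56, limma adjusted p = 0.0368, on its dimmer probe set; -0.62 and 0.0556, not called, on the brighter), and the bile acid receptor Nr1h4 (-0.52, limma adjusted p = 0.0468) fell, with calls that were lost with any of the 6 samples left out (Cebpb, up to 0.136) or any other than WT5 (Nr1h4, up to 0.147).

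Markers of cell types were read beside these values, with directions counted on the brightest probe set of each gene. Over all tested probe sets 4.14% were called, 17.9% had an unadjusted limma p under 0.05 and 5796 of 10620 were above 0. Hepatocyte markers summed to 225706 to 256180 in KO livers and 240335 to 289572 in WT livers, with the highest signals from Apoa1, Alb and Ttr. Of 8 tested genes 6 were below 0 and 2 above (median -0.10), with 2 of 14 probe sets at an unadjusted p under 0.05. Tat was lower without overlap and was not called (-0.42, limma adjusted p = 0.0803). The 1 called gene, Tdo2, a tryptophan oxygenase, fell on the dimmer of its 2 probe sets (-0.71, limma adjusted p = 0.0330). That call was lost without KO903, KO905, WT5 or WT6 (limma adjusted p up to 0.0897). The brighter Tdo2 probe set overlapped between groups (-0.13, limma adjusted p = 0.596). Kupffer cell and macrophage markers summed to 5927 to 8086 in KO livers and 4566 to 6106 in WT livers, with 7 of 7 genes above 0, none called and 3 of 9 probe sets at an unadjusted p under 0.05. A dimmer Csf1r probe set was below 0 (-0.31) and overlapped between groups. Endothelial markers summed to 2714 to 3179 in KO livers and 2278 to 2701 in WT livers, with 6 of 7 above 0, none called and 3 of 7 probe sets at an unadjusted p under 0.05, Stab2 (0.36) and Clec4g (0.32) above 0 and Lyve1 (-0.56) below. Of the zonation markers, the pericentral list summed to 44616 to 51103 in KO livers and 45978 to 50411 in WT livers, and the periportal list to 32430 to 33047 in KO livers and 33997 to 36953 in WT livers. Their called genes were Glul, a pericentral glutamine synthetase (-0.40 on its brighter probe set, -0.13 and not called on the other), and the periportal Cyp2f2 (-0.37) and Hal (0.56). The Glul and Cyp2f2 calls were lost with any of the 6 samples left out (limma adjusted p up to 0.134 and 0.112) and that of Hal without KO903, KO904, KO905 or WT4 (up to 0.128). None of the tested stellate cell (5), lymphocyte (2) or neutrophil (1) marker genes was called. Alas2 of the erythroid list (limma adjusted p = 0.00183) and Cela1 of the pancreas and gut list (limma adjusted p = 0.0106) rose, each 1 of 2 tested genes. The Cela1 call was lost without KO904 or KO905 (limma adjusted p up to 0.0604). The other genes of these lists, the erythroid Hbb-b2 (-0.33) and the gut Fabp2 (0.27), overlapped between groups and were not called. Cholangiocyte markers were not analysed here, no marker probe set was at 0, and the part of any of these cells in the enzyme values was not tested.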

How the data were processed

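Total RNA of 6 mouse livers was hybridised to Affymetrix arrays, with groups taken from the sample titles. The deposited table holds linear intensity values, MAS 5.0 signals which the authors scaled to a target of 350 on each array, per the labels. The sources used here do not say how its 11811 probe sets were picked. Control probe sets (33) and those with a mean signal under 100 (1158) were left out. On the remaining 10620, log2(signal + 16) was tested with limma's lmFit and eBayes (trend by intensity). Tests were two-sided, and p-values were adjusted by Benjamini-Hochberg over all 10620, at a threshold of 0.05. The pseudocount of 16 understates differences of low signals.

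Gene symbols came from the platform's annotation (10776 with 1 symbol, 418 with several, 584 with none), which agrees in every member symbol with a RefSeq gene table of GRCm38.p6, used for chromosomes and gene order. Full values were given for called members and, in each family, for the 2 genes with the smallest p and the 2 with the highest signal; Sult1c2, Ces1f and the further probe sets of called genes were added after their values were seen. Related lists name up to 4 called genes each. The members and all lists were chosen with earlier results of these data known. The labels do not state that samples are separate animals, so p-values reflect sample-to-sample spread, which may be technical, and 3 arrays per group limit the precision. An exact permutation test of 3 against 3 cannot go below 0.1. No 2 arrays held the same values (at most 0.0847% identical). The fit was tested on simulated data. Alternatives were quantile normalization, median centring, pseudocounts of 1 and 64, no filter or a minimum of 200, robust eBayes, eBayes with no trend, array weights, each sample left out, a threshold of 0.10 and gene means. Software was limma 3.58.1 under R 4.3.3, and matplotlib 3.10.9 under Python 3.11.15.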

Additional observations from a re-analysis of the deposited data

How the results depend on the processing

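The 8 member calls were the same under a pseudocount of 1 or 64, no filter, a minimum signal of 200 and robust eBayes. Quantile normalization left 7, median centring 6, eBayes without the trend 3 and gene means 5; array weights gave 9 and a threshold of 0.10 gave 11. Leaving out 1 sample gave 1 to 9 member calls and 175 to 475 of all tested probe sets, against 440; a threshold of 0.10 gave 786. Counts without 1 sample were 0 to 1 for the glucuronosyltransferases, 1 to 2 for the sulfotransferases, 0 to 2 for the flavin monooxygenases, 0 to 3 for the carboxylesterases and Aadac, 0 to 1 for the aldehyde dehydrogenases, 0 for Akr1c and 3 to 9 for the related lists. The single glucuronosyltransferase call became 0 under quantile normalization, median centring, no trend and gene means. The sulfotransferases had 3 calls at 0.10, and the aldehyde dehydrogenases 1 at 0.10 and 1 with array weights. Without the trend, calls numbered 0 for the flavin monooxygenases, 2 for the carboxylesterases and Aadac, and 4 for the related lists (8 otherwise); gene means left 1 for the flavin monooxygenases. Family medians without 1 sample were 0.00 to 0.06 (glucuronosyltransferases), -0.00 to 0.13 (sulfotransferases), -0.54 to -0.27 (flavin monooxygenases), -0.14 to -0.06 (carboxylesterases and Aadac), -0.032 (without KO905) to 0.092 (without WT5; aldehyde dehydrogenases) and -0.08 to 0.01 (Akr1c). The glucuronosyltransferase median was 0.074 under quantile normalization, and the sulfotransferase median was 0.33 with gene means. Aldh2 turned to 0.12 with gene means (limma adjusted p = 0.667), an average that includes its 2 dim probe sets. Of the other values of named genes under these alternatives, 599 kept their side of the threshold and direction, 108 fell short of it and 5 newly passed it; the cause was not tested. No paired analysis was possible because the groups share no replicate numbers.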
